A study of Mus musculus with 4 samples.

Results

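Leukaemia inhibitory factor (LIF) is a cytokine of the interleukin-6 family that keeps mouse embryonic stem cells (ESCs) self-renewing. It binds the receptor chain Lifr, which pairs with the shared signalling chain Il6st (gp130), and JAK kinases bound to both chains then phosphorylate the transcription factor Stat3. Active Stat3 enters the nucleus and induces pluripotency factors, the Pim kinases and the SOCS proteins, which in turn damp the receptor. Epiblast stem cells (EpiSCs), the primed counterpart of ESCs, grow on Activin and FGF and do not need LIF.

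The expression of 10 genes of this pathway was followed, chosen by name from all genes of the count table: the ligand Lif, the receptor chains Lifr and Il6st, the kinases Jak1 and Jak2, the transcription factor Stat3, the feedback inhibitors Socs2 and Socs3, and the kinases Pim1 and Pim3. All 10 were found among the 37620 genes of the raw table and all 10 were among the 15462 genes kept by the authors' filter on low expression. The samples were R1 mouse ESCs of strain 129/Sv, either WT or Cripto KO (knocked out for Cripto, an epiblast co-receptor for Nodal encoded by Tdgf1). Each genotype was grown in medium with serum and LIF (serum/LIF, labelled ESC) or at low density for 6 days in N2B27 with Activin A at 20 ng per ml and bFGF (F/A, labelled EpiSC), a medium to which no LIF is listed as added. The culture change thus removed serum and LIF together with the addition of Activin and FGF, and their parts cannot be told apart. The study worked with more than a single Cripto KO clone, and the clone behind these libraries is not given in the sources used here.

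Each of the 4 conditions was sequenced as 1 library, so no value has a replicate error, no difference was tested and every comparison is between single cultures. Library totals lay between 15230856 and 17315442 counts on genes. Nearly all counts of F/A Cripto KO were even, with 3 odd among 18700 genes with counts, against 53.1% to 53.6% odd in the other libraries, and its counts and total were therefore halved for each interval. Tdgf1 had 18714 raw counts in WT and 945 in Cripto KO in serum/LIF, and 1572 in WT and 86 in Cripto KO in F/A. Of 6 markers of naive ESCs (Zfp42, Klf2, Esrrb, Nr0b1, Dppa3, Tbx3), the summed level was 3150 cpm (raw counts scaled to a common library total) in WT and 2840 cpm in Cripto KO in serum/LIF, and 22.8 and 36.2 cpm in F/A. Most of the F/A sums was Tbx3 (19.0 cpm in WT and 34.1 cpm in Cripto KO). Zfp42, Klf2 and Esrrb, with at most 28 raw counts in F/A, were lower in F/A Cripto KO, and Nr0b1 and Dppa3 had 0 counts in both. The 5 primed epiblast markers (Fgf5, Otx2, Pou3f1, Dnmt3b, Sfrp2) summed to 536 cpm in F/A WT and 229 cpm in F/A Cripto KO, against 178 and 196 cpm in serum/LIF. Fgf5 had 3 raw counts in WT and 1 in Cripto KO in serum/LIF, but 2206 and 394 in F/A, while Otx2 was higher in F/A in WT (2375 counts against 1307) and lower in Cripto KO (678 against 1023), and Pou3f1 had at most 15 counts in any library. The F/A Cripto KO library, also labelled EpiSC, thus had a lower primed marker level than the WT library.

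A log2 change below is taken between the authors' quantile-normalized counts, and a gene is called at a 2-fold difference or more. Ratios of cpm carry a 95% Clopper-Pearson interval from the raw counts, which covers counting error only and not the difference between repeated cultures. In bulk RNA, fewer cells of a type and less RNA per cell cannot be told apart.

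STAT proteins bind a palindromic motif, TTCNNNGAA, which reads the same on both strands. It was searched in the 300 bases before the start of the longest coding transcript of every gene with such a transcript, and 1803 of 22359 windows (8.06%) held it. Among the members it was found in Socs3 alone, 61 to 53 bases before the start, at chr11:117830553-117830561 of NCBIM37. The windows of Lifr, Socs2 and Socs3 lay inside the annotated gene, and that of Stat3 overlapped 2 exons of coding transcripts. Other starts of these genes were not searched. The windows of Socs3 and Jak2 are shown because these members had the widest range of levels over the 4 libraries, in opposite directions. The Socs3 window is chr11:117830501-117830800 on the minus strand and the Jak2 window is chr19:29326018-29326317 on the plus strand. Both are written 5′ to 3′ and end at the base before the transcript, and capitals mark the motif.
Socs3: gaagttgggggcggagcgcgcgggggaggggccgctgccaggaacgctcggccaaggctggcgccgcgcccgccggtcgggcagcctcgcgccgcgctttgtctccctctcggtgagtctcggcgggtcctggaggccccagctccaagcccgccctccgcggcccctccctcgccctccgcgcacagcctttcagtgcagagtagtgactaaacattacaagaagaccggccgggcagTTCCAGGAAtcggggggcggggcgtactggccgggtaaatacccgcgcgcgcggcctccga
Jak2: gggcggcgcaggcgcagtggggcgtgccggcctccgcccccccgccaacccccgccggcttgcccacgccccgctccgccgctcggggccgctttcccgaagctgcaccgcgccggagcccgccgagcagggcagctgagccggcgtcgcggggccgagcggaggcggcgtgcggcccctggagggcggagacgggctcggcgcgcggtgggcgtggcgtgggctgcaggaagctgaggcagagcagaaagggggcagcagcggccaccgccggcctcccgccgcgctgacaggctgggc
These letters describe the windows and show no binding. The GC content was 72.3% in the Socs3 window and 81.0% in the Jak2 window.

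In WT cells, 5 of the 10 members were called between F/A and serum/LIF, where 43.1% of all genes kept by the filter were called. Jak1 and Jak2 were higher in F/A (22.1% of all genes were called higher), and Stat3, Socs3 and Pim3 were lower (20.9% called lower). In Cripto KO cells 5 members were called as well, beside 39.3% of all genes: Jak2 was higher in F/A (19.9% of all genes called higher), and Lifr, Stat3, Socs2 and Socs3 were lower (19.4% called lower). The 10 members had a median log2 change of −0.44 (WT) and −0.84 (Cripto KO), while that of all genes was −0.07 in both. The 2 transitions had the same sign for each of the 10 members, with 4 higher and 6 lower in F/A. The share of all genes with the same sign in both transitions was not computed, so nothing is read from this count. The shares called in either direction were close to the background. With 10 members nothing is read from the split by direction, and the members are described for their values.

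**Figure D1:**
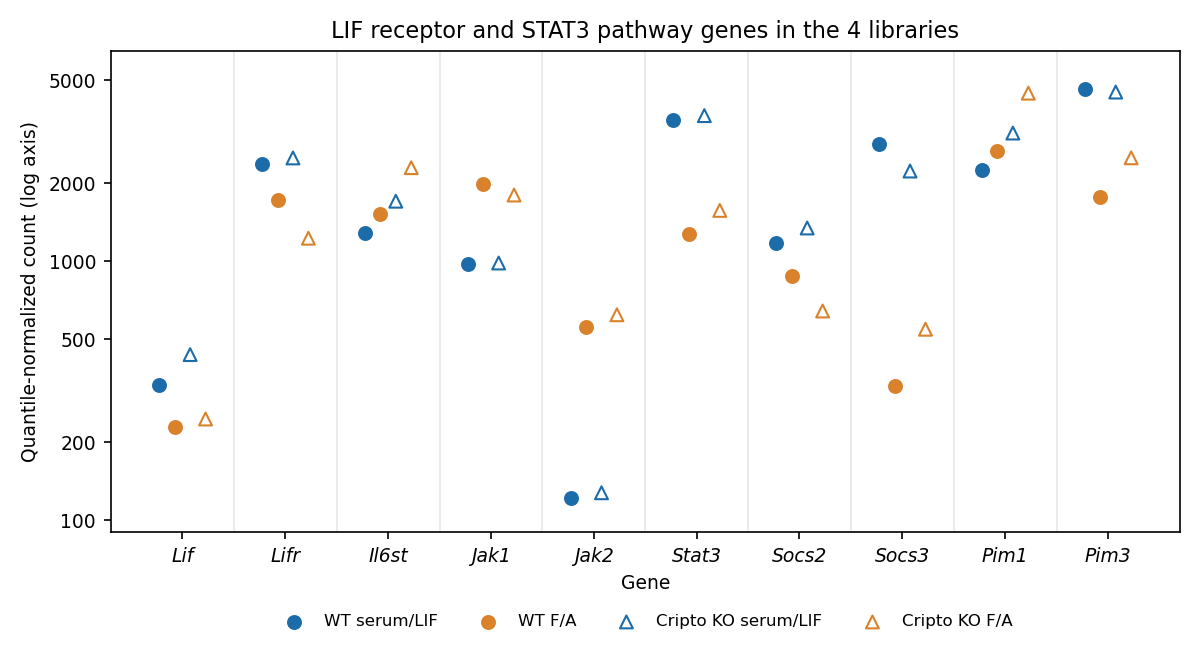
Quantile-normalized counts (log axis) of the 10 genes in the 4 single libraries, with filled circles for WT, open triangles for Cripto KO, blue for serum/LIF and orange for F/A. Socs3 and Stat3 lie lower in both F/A libraries than in both serum/LIF libraries, Jak1 and Jak2 lie higher, and Pim1 and Il6st are highest in F/A Cripto KO.

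Lif, the ligand itself (chromosome 11 of NCBIM37 from 4157560 to 4172517, plus strand), was the member of lowest count in F/A, with 352 raw counts in WT and 420 in Cripto KO in serum/LIF, and 224 and 246 in F/A. Both F/A libraries were below both serum/LIF libraries. The log2 change was −0.54 in WT and −0.83 in Cripto KO, neither of which reached 2-fold. The cpm ratio of serum/LIF over F/A was 1.38 in WT (1.17 to 1.64) and 1.65 in Cripto KO (1.35 to 2.04). The RNA level says nothing of the recombinant LIF protein in the serum/LIF medium.

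Lifr, the chain that binds LIF (chromosome 15 from 7079559 to 7147489, plus strand), had 2484 raw counts in WT and 2548 in Cripto KO in serum/LIF, 1696 in F/A WT against 1220 in F/A Cripto KO. Both F/A libraries were lower, with Cripto KO the lowest. The log2 change was −0.46 in WT and −1.03 in Cripto KO, so that the 2-fold threshold was passed in Cripto KO alone, by a small margin. The F/A cpm was 0.776 of the serum/LIF cpm in WT (0.729 to 0.826) and 0.495 in Cripto KO (0.452 to 0.541). Lifr has the longest coding transcript of the members, 9655 nt, and relative to genes of like transcript length its log2 change was −1.21 in WT and −1.23 in Cripto KO. Relative to genes of like median length over all annotated transcripts, a second version of the correction, it was −0.78 and −1.13. Whether length has a part in the result was not tested.

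Il6st, the signalling chain that Lifr shares with the receptors of interleukin-6, interleukin-11 and oncostatin M (chromosome 13 from 113265216 to 113297068, plus strand), was not lower in F/A. It had 1340 and 1719 raw counts in serum/LIF (WT, then Cripto KO) and 1483 and 2222 in F/A. The log2 change was 0.23 in WT and 0.43 in Cripto KO, and the WT value was −0.05 and −0.19 with the corrections for coding transcript length and median transcript length. Apart from those corrected values, the log2 changes of Lifr and Il6st had opposite signs in both genotypes. Scaled by the longest coding transcript and the library total (RPKM), Il6st over Lifr was 1.0003 (WT) and 1.25 (Cripto KO) in serum/LIF, but 1.62 (WT) and 3.38 (Cripto KO) in F/A.

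The kinases were both higher in F/A. Jak2 (chromosome 19 from 29326318 to 29387570, plus strand) had the fewest counts of all members in serum/LIF, 131 in WT and 121 in Cripto KO, and reached 538 (WT) and 624 (Cripto KO) in F/A. The log2 change was 2.20 in WT and 2.28 in Cripto KO, with a cpm ratio of 4.67 (3.85 to 5.70) and 5.33 (4.31 to 6.63). Of all genes, 10.2% in WT and 9.25% in Cripto KO were at least as far up, so an increase of this size was frequent in the transition. Jak1, the kinase on which gp130 signalling chiefly relies (chromosome 4 from 100824972 to 100937887, minus strand), had 1010 and 969 raw counts in serum/LIF and 1933 and 1750 in F/A, WT first. Its log2 changes, 1.04 (WT) and 0.87 (Cripto KO), lay on either side of the threshold, and the WT value was 0.85 with the correction for coding transcript length but 1.44 with that for median transcript length. Jak1 overlaps Raver2 on the other strand over 4 bases. The RPKM of Jak1 over that of Jak2 was 7.90 and 8.21 in serum/LIF (WT, then Cripto KO) and 3.68 and 2.88 in F/A, so Jak1 stayed the more abundant transcript while the margin was smaller in F/A.

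Stat3, the transcription factor at the end of the cascade (chromosome 11 from 100746412 to 100800854, minus strand), had 3718 raw counts in WT and 3695 in Cripto KO in serum/LIF, and 1259 and 1538 in F/A. The serum/LIF libraries differed little and both F/A libraries were far lower. The log2 change was −1.46 in WT and −1.22 in Cripto KO, with serum/LIF over F/A at 2.60 (2.44 to 2.77) and 2.33 (2.15 to 2.52) by cpm. Exons of Stat3 overlap those of Stat5a on the other strand over 72 bases, and whether reads were counted by strand is not given in the sources used here. Stat5a had 252 and 141 counts in serum/LIF and 94 and 104 in F/A, far fewer than Stat3.

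Socs3, the inhibitor that binds gp130 and its JAK kinases and is induced by Stat3 (chromosome 11 from 117827393 to 117831361, minus strand), had the largest change of the members. It had 2977 raw counts in serum/LIF WT, 2253 in serum/LIF Cripto KO, 320 in F/A WT but 554 in F/A Cripto KO. Both F/A libraries were below both serum/LIF libraries, and the WT cultures held both the highest and the lowest level. The log2 change was −3.10 in WT and −2.03 in Cripto KO, and 5.98% and 9.38% of all genes were at least as far down. By cpm the serum/LIF level was 8.18 times the F/A level in WT (7.29 to 9.21) and 3.94 times in Cripto KO (3.47 to 4.48). Socs2, a SOCS protein known mainly as an inhibitor of growth hormone signalling (chromosome 10 from 94847996 to 94879814, minus strand), was lower in F/A by a smaller margin. It had 1214 and 1324 raw counts in serum/LIF and 864 and 644 in F/A, WT first, and its log2 change was −0.42 in WT and −1.07 in Cripto KO. The Cripto KO call of Socs2 lay close to the threshold and was lost with total-count, TMM and DESeq2 scaling (log2 −0.99, −0.97 and −0.98). The RPKM of Socs3 over that of Socs2 was 4.08 in serum/LIF WT but 0.616 in F/A WT, so their order was turned, whereas in Cripto KO it was 2.83 and 1.43.

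The Pim kinases, serine/threonine kinases that promote survival and whose genes are STAT targets, moved apart. Pim3 (chromosome 15 from 88692616 to 88696150, plus strand) had 4925 and 4538 raw counts in serum/LIF and 1737 and 2408 in F/A, WT first. Its log2 change was −1.38 in WT and −0.84 in Cripto KO. Pim1 (chromosome 17 from 29627757 to 29632390, plus strand) had 2365 and 3147 raw counts in serum/LIF and 2629 and 4320 in F/A, so that it was higher in F/A in both genotypes and highest in F/A Cripto KO. Its log2 change was 0.25 in WT and 0.51 in Cripto KO, short of 2-fold. By RPKM, Pim1 was 0.589 (WT) and 0.851 (Cripto KO) of Pim3 in serum/LIF, but 1.86 (WT) and 2.20 (Cripto KO) times Pim3 in F/A, so the more abundant Pim transcript differed between the cultures. An antisense long non-coding RNA, Gm16912, overlaps exons of Pim1 over 261 bases and had 688 and 914 counts in serum/LIF and 754 and 1208 in F/A. Reads of these genes cannot be told apart unless the counting used strand, so the level of Pim1 is uncertain to that extent.

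Ordered by RPKM, the members ran in serum/LIF WT from Pim3 (118), Pim1 (69.3), Socs3 (67.4) and Stat3 (35.5) through Socs2 (16.5), Il6st (14.9), Lifr (14.9) and Jak1 (11.9) to Lif (5.05) and Jak2 (1.50). Neighbours such as Il6st and Lifr could not be separated at this depth, and no replicate spread was available for any pair. In F/A WT the order began with Pim1 (87.5), Pim3 (47.1), Jak1 (25.9) and Il6st (18.7), and Socs3 (8.23) had moved from the third to the eighth place. In F/A Cripto KO it began with Pim1 (139), Pim3 (63.2), Il6st (27.1) and Jak1 (22.7), with Socs3 (13.8) in the sixth place and Lifr (8.03) in the eighth.

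**Figure D2:**
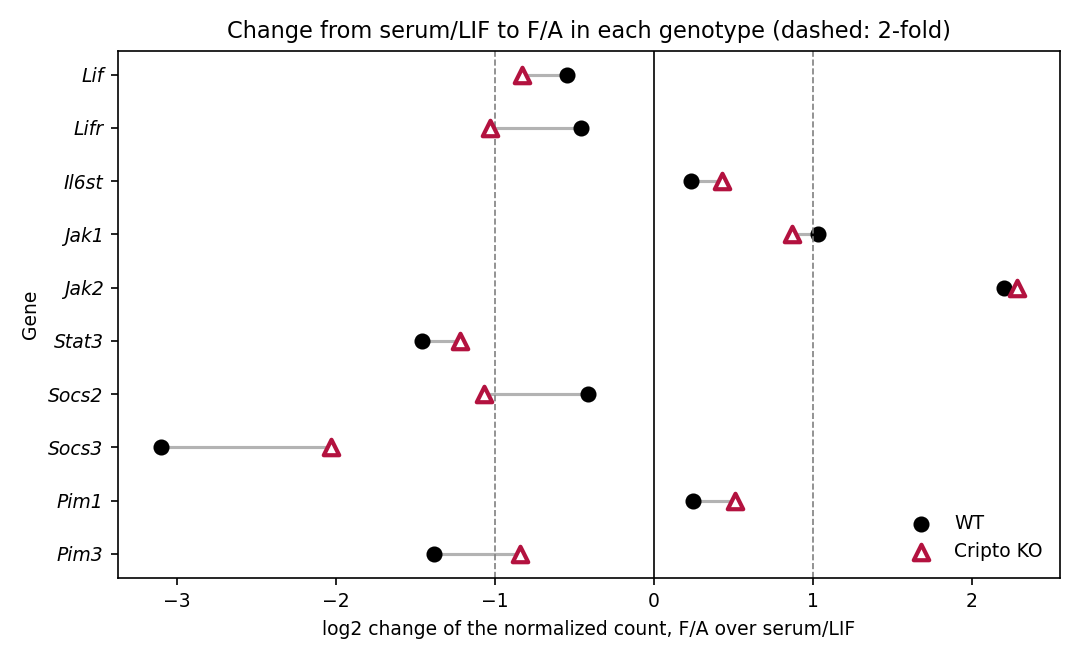
Log2 change of the normalized count from serum/LIF to F/A of each of the 10 genes, in WT (black circles) and Cripto KO (red open triangles), 1 library per condition, with dashed lines at 2-fold. The points of a gene lie on the same side of 0 throughout, and the grey bar between them is longest for Socs3, from −3.10 to −2.03.

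The next comparison asked whether loss of Cripto altered the transition. The log2 change in Cripto KO minus that in WT was 2-fold or more for 1 of the 10 members, Socs3, where 17.1% of all genes differed by as much. The Socs3 difference was 1.07, which corresponds to 2.10-fold, and 6.75% of all genes differed at least as far in that direction. Pim3 (0.54) and Stat3 (0.24) likewise were less reduced in Cripto KO, whereas Socs2 (−0.65), Lifr (−0.57) and Lif (−0.28) were more reduced. For the genes higher in F/A the differences were 0.26 (Pim1), 0.20 (Il6st), −0.16 (Jak1) and 0.08 (Jak2). The Socs3 difference was 0.997, just under the threshold, with the correction for coding transcript length and 0.79 with that for median transcript length. With the same corrections, in that order, Lifr was at −0.02 and −0.35, Lif at −0.16 and −0.04, and Stat3 at 0.56 and −0.03. Socs2 was at −0.48 and −0.82, Pim3 at 0.46 and 0.64, and Jak1 at 0.03 and −0.42. With 1 library a condition none of these differences could be tested.

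Within F/A, 0 of the 10 members differed by 2-fold between Cripto KO and WT, while 10.3% of all genes did. With 1 library a group no p-value goes with this count. The counting interval of the ratio was clear of 1 for 8 of the 10, with 5 higher and 3 lower in Cripto KO, beside 51.2% of all genes. Such intervals are narrower for genes with more counts, and the share of all genes was not matched on count. Pim1 (log2 0.74), Socs3 (0.73), Il6st (0.60), Pim3 (0.50) and Stat3 (0.30) were higher in Cripto KO. Socs3 at 1.68 times the WT cpm (1.42 to 1.97) and Pim1 at 1.59 times (1.50 to 1.68) were the farthest up, and 8.24% and 8.09% of all genes lay at least as far up by log2 change. Lifr (−0.49), Socs2 (−0.45) and Jak1 (−0.15) were lower, with Lifr at 0.696 of the WT cpm (0.633 to 0.764) and Socs2 at 0.721 (0.633 to 0.821). The intervals of Lif (1.06, 0.846 to 1.33) and Jak2 (1.12, 0.973 to 1.29) included 1. The corrections for transcript length did not give the same answer for Lifr, at −0.03 with coding and −0.34 with median length, nor for Jak1, at 0.02 and −0.27.

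The marker sums of some other cell types differed between the genotypes in F/A, and those of others were close. Of 6 mesoderm markers (Kdr, Mesp1, Hand2, Tbx6, Mixl1, Cdh5), all were above the detection limit in both F/A libraries, and their sum was 47.9 cpm in WT and 92.1 cpm in Cripto KO, against 2.31 and 3.14 cpm in serum/LIF. Kdr (27.4 and 46.9 cpm) and Hand2 (5.32 and 37.1 cpm) were higher in Cripto KO, whereas Mixl1 (7.94 and 2.29 cpm) and Tbx6 (3.41 and 1.398 cpm) were lower. The 8 fibroblast markers (Col1a1, Col1a2, Col3a1, Dcn, Lum, Thy1, Postn, Twist2) summed in F/A to 75.0 cpm (WT) and 199 cpm (Cripto KO), against 116 and 123 cpm in serum/LIF. Trophoblast markers (7 of 8 listed were matched) summed in F/A to 261 and 282 cpm, a near equality that hides opposite differences. Cdx2 (6.83 and 42.8 cpm) and Hand1 (12.9 and 110 cpm) were higher in Cripto KO and Eomes (129 and 26.8 cpm) was lower. Primitive endoderm markers (8 genes) summed in F/A to 268 and 366 cpm. Gata4 (54.6 and 86.1 cpm), Gata6 (30.5 and 50.7 cpm), Pdgfra (53.3 and 92.2 cpm) and Lama1 (85.6 and 98.0 cpm) were higher in Cripto KO. Dab2 (40.0 and 37.5 cpm), Sox7, Amn and Cubn were lower. Neural markers (4 of 6 matched) summed to 322 and 302 cpm, most of it Nes (293 and 267 cpm), and the other matched genes were higher in Cripto KO. Blood markers (4 genes) summed to 14.5 and 13.1 cpm, with Ptprc at 0 in both. General pluripotency markers (Pou5f1, Sox2, Sall4, Lin28a) summed in F/A to 1318 and 1196 cpm, against 2898 and 2890 cpm in serum/LIF. Most of the F/A sums was Lin28a (911 and 920 cpm). Pou5f1 (119 and 77.3 cpm) and Sall4 (247 and 152 cpm) were lower in F/A Cripto KO, and Sox2 (40.2 and 47.6 cpm) was higher. The part of these cell types in the levels of the members was not tested.

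Within serum/LIF, where LIF was present, 0 of the 10 members differed by 2-fold between Cripto KO and WT, beside 5.61% of all genes. The counting interval was clear of 1 for 7 of the 10, with 6 higher and 1 lower in Cripto KO, and for 40.5% of all genes, again not matched on count. Pim1 (log2 0.47), Il6st (0.40) and Lif (0.39) were the farthest up, at cpm ratios of 1.42 (1.34 to 1.50), 1.37 (1.27 to 1.47) and 1.27 (1.10 to 1.47). Socs3 was the member that was lower, at −0.34 and a cpm ratio of 0.806 (0.763 to 0.852). Socs2 (0.20), Lifr (0.08) and Stat3 (0.06) were slightly higher. Jak1 (0.02), Jak2 (0.07) and Pim3 (−0.04) had intervals that included 1, which for Jak2 ran from 0.762 to 1.27. For Socs3, Socs2 and Lifr the sign of the genotype difference was thus opposite in the 2 cultures. With the correction for coding transcript length, however, Lifr was at −0.035 in serum/LIF and −0.027 in F/A, with the same sign.

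**Figure D3:**
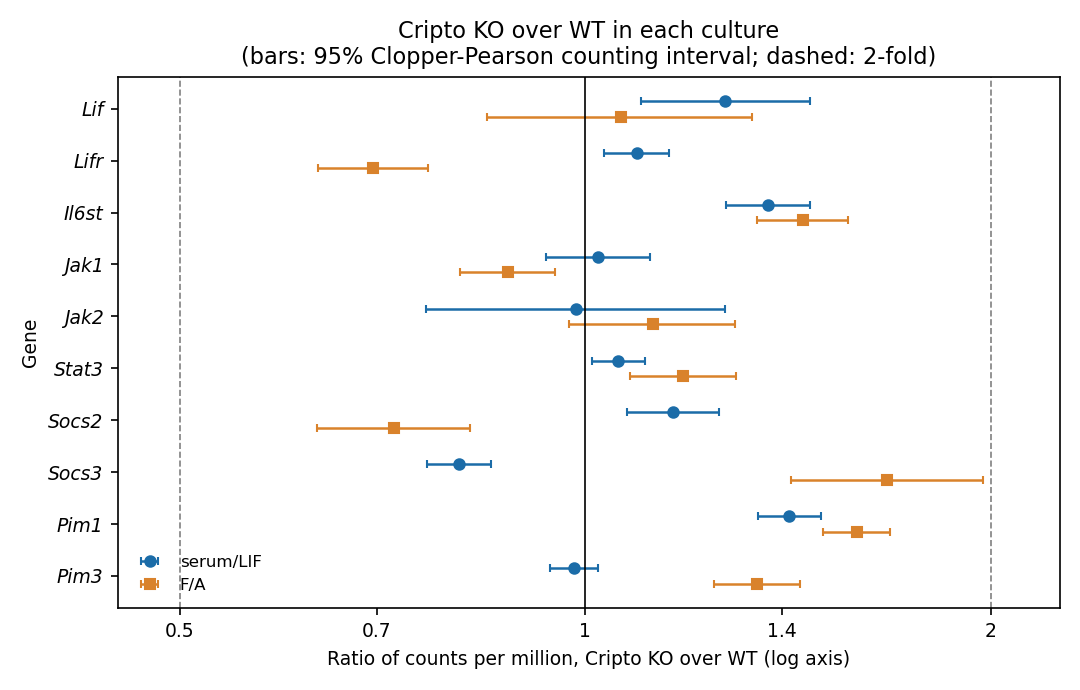
Ratio of cpm, Cripto KO over WT (log axis), of the 10 genes in serum/LIF (blue circles) and F/A (orange squares), with bars for the 95% counting interval and dashed lines at 2-fold. All 20 ratios lie inside the dashed lines, and Socs3, Socs2 and Lifr lie on opposite sides of 1 in the 2 cultures.

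The 2 members with the widest range of log2 levels were also set beside the 9659 genes of a mean normalized count of at least 200, by the distance between their 4 centred log2 values. Nearest to Socs3 (range 3.10) were Lace1, encoding a mitochondrial ATPase (distance 0.138), and the centromere protein genes Cenpv (0.202) and Cenpm (0.252). Cenpm, for example, had 1359 and 998 raw counts in serum/LIF and 130 and 206 in F/A, WT first. Nearest to Jak2 (range 2.36) were Ube2e2, a ubiquitin-conjugating enzyme (0.0137), Arhgef40 (0.0595) and Speg, a muscle kinase (0.0734). Such likeness over 4 libraries is a description of level only.

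Around the members, 5 lists of 77 pathway genes were examined, of which 75 were matched (Hras and Tfcp2l1 are not analysed here). Among other cytokines and receptors of the interleukin-6 family, 9 of 15 passed the filter. The other 6 (Il6, Osm, Cntf, Ctf2, Il27, Ebi3) had at most 26 raw counts in any library. In WT 3 were called higher and 2 lower in F/A, and in Cripto KO 4 and 2, with median log2 changes of 0.16 and 0.73. Of all genes, 43.1% (WT) and 39.3% (Cripto KO) were called in either direction. Cntfr, the receptor chain of ciliary neurotrophic factor, which signals through Lifr and Il6st, had 119 and 166 raw counts in serum/LIF and 1048 and 1078 in F/A, which gave log2 changes of 3.28 (WT) and 2.63 (Cripto KO). Osmr, the oncostatin M receptor chain, named after its values were seen, had 92 and 81 counts in serum/LIF and 9 and 6 in F/A. Receptor chains that share Il6st thus differed in direction.

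Of the 8 other JAK and STAT genes, all passed the filter, and 1 was called higher and 3 lower in WT, against 0 and 1 in Cripto KO. The share of all genes called in either direction was 43.1% in WT and 39.3% in Cripto KO. Stat4, a mediator of interleukin-12 signalling, had 463 and 427 raw counts in serum/LIF and 19 and 22 in F/A, with log2 changes of −4.44 and −4.09. Jak3, the kinase of the common gamma chain, was at −1.53 in WT and −0.99 in Cripto KO, and Stat5a at −1.29 and −0.47. Stat2, a mediator of interferon signalling, had 433 raw counts in serum/LIF WT and 868 in F/A WT, but 565 and 404 in Cripto KO. Its log2 change was 1.11 in WT and −0.54 in Cripto KO. Within F/A Stat2 was the gene of this list called between genotypes, at −1.15, where 10.3% of all genes were called.

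The 13 other negative regulators (SOCS family, PIAS proteins and phosphatases) all passed the filter. In WT 2 were called higher and 2 lower and in Cripto KO 1 and 2, where 43.1% and 39.3% of all genes were called in either direction. In either culture 0 differed by 2-fold between genotypes, beside 10.3% of all genes in F/A and 5.61% in serum/LIF. Cish, a feedback inhibitor of Stat5, was at 1.43 in WT and 0.68 in Cripto KO. The PIAS genes Pias2 (−1.28 and −1.23) and Pias4 (−1.17 and −1.003), encoding SUMO ligases, were lower in both. None of the 13 approached the Socs3 change, the farthest in WT being Cish.

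Of 18 matched genes of the ERK and PI3K branches that the receptor also engages, 6 were called higher and 1 lower in WT. In Cripto KO 3 and 1 were called, and the medians were 0.41 (WT) and 0.37 (Cripto KO). Among all genes 43.1% (WT) and 39.3% (Cripto KO) were called in either direction. Gab1, a docking adaptor, had 6792 and 7002 raw counts in serum/LIF and 1599 and 1516 in F/A (log2 −1.99 and −2.14). Akt1, the kinase downstream of PI3K, had 392 and 463 in serum/LIF and 1406 and 2038 in F/A (1.96 and 2.15). Ptpn11, the phosphatase Shp2, was at 1.39 and 1.23, and Sos2, a Ras exchange factor, at 1.57 and 1.83. Between genotypes 0 of the 18 were called in either culture, beside 10.3% of all genes in F/A and 5.61% in serum/LIF.

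Of 22 genes reported as LIF or Stat3 targets in ESCs, 20 passed the filter. In WT 4 were called higher and 10 lower in F/A (median −1.06), in Cripto KO 2 and 8 (median −0.85), or 14 and 10 in all, where 43.1% and 39.3% of all genes were called. Klf4, a naive pluripotency factor, had 7372 and 5803 raw counts in serum/LIF and 103 and 158 in F/A, with log2 changes of −6.03 and −5.17. Klf5 (−2.45 and −2.91), Sgk1 (−3.26 and −4.37) and Bcl3 (−4.49 and −3.00), a nuclear IκB protein, were lower in both genotypes. The list did not move as a block. Myc and Bcl2l1, named after their values were seen, were called higher in F/A in both genotypes. The log2 change of Myc was 2.41 in WT and 1.48 in Cripto KO, and that of Bcl2l1 was 2.002 and 1.98. Pim2, the third Pim kinase, had 518 raw counts in serum/LIF WT and 1313 in F/A WT, but 731 and 396 in Cripto KO. Its log2 change was 1.45 in WT and −0.94 in Cripto KO, unlike that of Pim1 and Pim3, which kept their sign.

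Between genotypes, 5 of the 20 were called in F/A, 3 higher and 2 lower in Cripto KO, beside 10.3% of all genes. Gbx2, a homeobox factor that sustains self-renewal downstream of Stat3, had 598 and 500 raw counts in serum/LIF, 43 in F/A WT but 366 in F/A Cripto KO. Its log2 change in the transition was −3.66 in WT but −0.51 in Cripto KO, and its F/A cpm in Cripto KO was 8.24 times that in WT (5.88 to 11.8). Bcl3, named after its values were seen in this comparison, was at 1.34 and the immediate early gene Egr1 at 1.003, as Socs3 was at 0.73, whereas Pim2 (−1.78) and Sgk1 (−1.27), a serum-induced kinase, were lower in Cripto KO. In serum/LIF 1 of the 20 was called (5.61% of all genes), Cebpb, with 218 raw counts in WT and 605 in Cripto KO (log2 1.603).

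**Figure D4:**
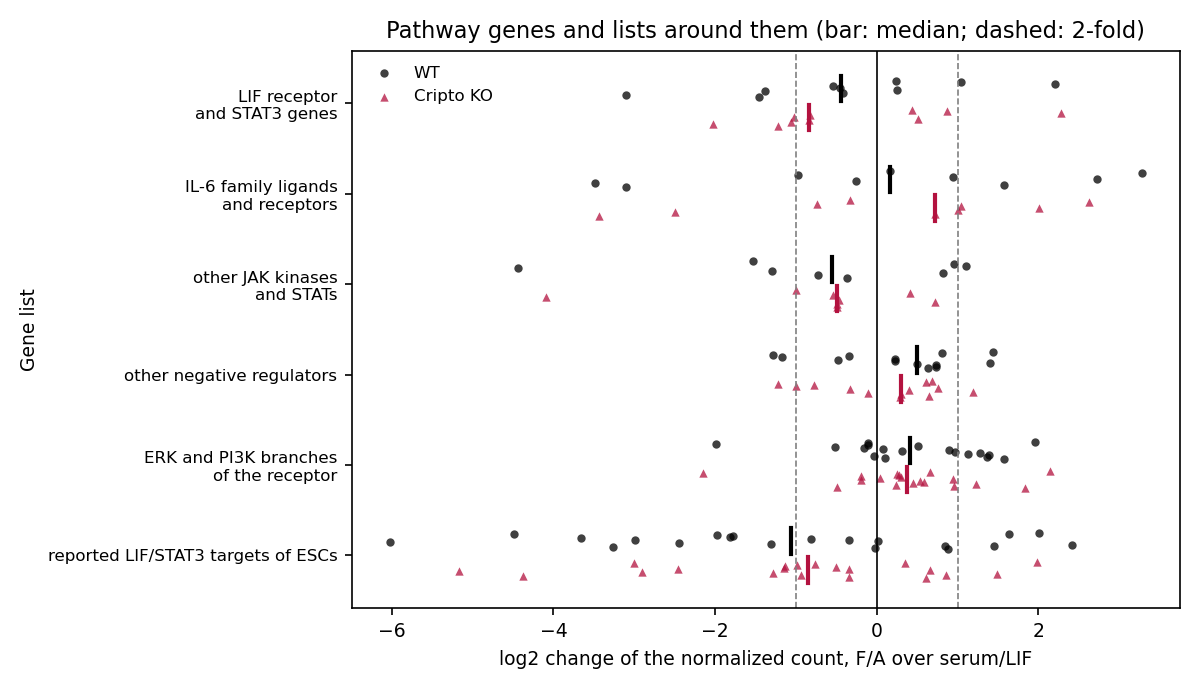
Log2 change of the normalized count from serum/LIF to F/A of each gene of the 10 pathway members and of 5 lists around them, in WT (black circles) and Cripto KO (red triangles), 1 library per condition, with bars at the list median and dashed lines at 2-fold. The medians of the members (−0.44 and −0.84) and of the reported LIF/STAT3 targets (−1.06 and −0.85) lie below 0, and each of these groups holds genes on both sides of 0.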

How the data were processed

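RNA of 4 mouse cultures was measured by RNA-seq, 1 library each. The authors aligned the paired reads to mm9 (NCBIM37) with TopHat2 2.0.13 and deposited whole-number counts per gene from HTSeq 0.6.1p1. They also deposited a signal, the full quantile-normalized counts of the genes kept by a filter at 1 cpm. Log2 changes come from the normalized values with 0 set to 0.5, and calls from a 2-fold threshold with no test. The detection limit was 3 counts (6 in F/A Cripto KO). Quantile normalization gives every library the same distribution, so that a global difference in RNA content is removed.

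Symbols, coordinates, transcript lengths (longest coding transcript) and the windows before transcript starts came from the GENCODE annotation and genome of NCBIM37, which named 98.9% of the genes. The pathway members and gene lists were chosen with earlier results of these data known. The genes named are the members, Tdgf1, and, per list and comparison, the 4 with the largest log2 change past 2-fold where the larger raw count was at least 200, besides the 3 genes nearest to each of 2 members. Alternatives were total-count scaling, TMM (edgeR 4.0.16) and DESeq2 1.42.0 factors (R 4.3.3), 5 added to every value, halved F/A Cripto KO counts, other filters, a 3-fold threshold, and the subtraction of a running median (501 genes) along transcript length. Changes and intervals were tested on simulated data. The scripts ran on pandas 2.3.3, scipy 1.17.1, matplotlib 3.10.9 and numpy 2.4.6 (Python 3.11.15).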

Additional observations from a re-analysis of the deposited data

Results flagged for a closer look

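Each comparison is between single libraries, so none of the following differences between groups was tested, and all are given as log2 changes of normalized counts. They were picked out because the genotype difference, Cripto KO against WT, had opposite signs in the 2 cultures and the counting intervals of both ratios were clear of 1. Lifr was at 0.077 in serum/LIF and −0.49 in F/A, and Socs2 at 0.20 and −0.45. With the correction for coding transcript length Lifr was at −0.035 in serum/LIF and −0.027 in F/A, so its signs were no longer opposite. Socs3 went the other way, at −0.34 in serum/LIF and 0.73 in F/A. Of the reported LIF or Stat3 targets, Bcl3 was at −0.15 and 1.34, Egr1 at −0.20 and 1.003 and Klf4 at −0.26 and 0.60, with the same order of signs as Socs3. Pim2 was at 0.61 in serum/LIF and −1.78 in F/A, and Stat2 at 0.50 and −1.15.

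For Pim2 and Stat2 the transition from serum/LIF to F/A was opposite as well. Pim2 was at 1.45 in WT and −0.94 in Cripto KO, and Stat2 at 1.11 and −0.54.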

How the results depend on the processing

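Of 280 values of the 10 members under 7 alternative scalings or corrections, 9 had another sign and 8 lay on the other side of 2-fold. The sign changes in the transitions were those of Il6st in WT after both length corrections (−0.05 and −0.19), and the other 7 were genotype differences near 0. With TMM factors 3 members were called in the Cripto KO transition, since Lifr (−0.99) and Socs2 (−0.97) lay just under 2-fold. At a 3-fold threshold 2 members were called in the WT and 2 in the Cripto KO transition, and 0 differed between transitions. After the corrections for coding transcript length and for the median length of all transcripts of a gene, the latter chosen after seeing the data, 0 members differed between transitions by 2-fold, with Socs3 at 0.997 and 0.79. In the WT transition the first correction placed Lifr past 2-fold (−1.21) and Jak1 under it (0.85), and the second did neither (−0.78 and 1.44). The changes of Socs3 ranged from −3.11 to −2.60 in WT and from −2.04 to −1.81 in Cripto KO.

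The share of all genes past 2-fold depended on the filter. Without a filter it was 28.5% in the WT transition and 8.62% between genotypes in serum/LIF. With a mean of at least 50 raw counts it was 5.97% between genotypes in F/A, 2.39% in serum/LIF and 11.2% for the difference of the transitions. No paired analysis was possible because each group holds 1 library. Depth limits the values of Jak2 and Lif most, and the spread between cultures is unknown throughout.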
